A study of Mus musculus with 9 samples.

Results

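Carmil2, Ak1, Mcoln3, Lgals3, Slc44a3, Gja1, Isyna1, Pde8a, Hapln1 and Slit2 are 10 genes whose RNA in B16F10 cells, a mouse melanoma line, depended on the number in the library title and hardly on the treatment. They were listed by name because their normalised counts were high in the libraries of some numbers and near 0 or several-fold lower in those of other numbers, in every treatment. They are 10 of 55487 genes in the deposited table, and all 10 were among the 15237 genes kept after the filter on low counts. The genes were chosen by their levels by number, so those levels are given below as a description with no test.

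Poly(A) RNA of B16F10 cells was sequenced after 6 h in 3 conditions: with 50 ng/mL interferon gamma (IFNγ) plus 50 nM FK866, with 50 ng/mL IFNγ, or without either agent (media). FK866 is a small-molecule inhibitor of NAMPT, the enzyme that limits NAD salvage. Each condition has 3 libraries, titled Control 3, Control 4 and Control 5, so that every number occurs once in each condition. The labels do not say what the numbers stand for or whether libraries come from separate cultures, and p-values therefore measure only the spread between these libraries. The treatment protocol names mouse or human IFNγ, with a catalogue number for the mouse protein. All libraries come from the same cell line, and no group received FK866 without IFNγ.

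The 10 genes belong to different pathways and encode cell surface and matrix proteins, membrane transport proteins, metabolic and signalling enzymes, and an actin regulator. Gja1 encodes connexin 43, a subunit of gap junction channels. Hapln1 encodes a link protein that fastens proteoglycans to hyaluronan, Slit2 encodes a secreted guidance ligand of ROBO receptors, and Lgals3 encodes galectin-3, a lectin that binds β-galactosides. Mcoln3 encodes TRPML3, an endolysosomal cation channel in which gain-of-function alleles change hearing and coat colour in the varitint-waddler mouse. Slc44a3 encodes a member of the choline transporter-like family. Isyna1 encodes the enzyme that makes inositol phosphate from glucose 6-phosphate, Pde8a a phosphodiesterase specific for cAMP, and Ak1 the cytosolic adenylate kinase that interconverts adenine nucleotides. Carmil2 encodes a regulator of actin capping protein that in T cells takes part in CD28 costimulation.

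The sequence before the annotated start is shown for 4 of the genes, chosen because 3 of them (Gja1, Pde8a and Slit2) were highest in number 4 and lowest in number 3, while Ak1 was highest in number 3, and because these windows lie outside annotated exons except for the last 17 bases of the Slit2 window. The RefSeq table for GRCm38.p6 held 12 windows for 9 of the 10 genes, and Carmil2 was not matched. Each run is the 250 bases before the start on the gene's strand, 5′ to 3′, at chr10:56377050-56377299 for Gja1, chr7:81213015-81213264 for Pde8a, chr5:47982905-47983154 for Slit2 and chr2:32621508-32621757 for the first Ak1 window, all on the plus strand. Capitals mark matches to the searched motifs.
Gja1: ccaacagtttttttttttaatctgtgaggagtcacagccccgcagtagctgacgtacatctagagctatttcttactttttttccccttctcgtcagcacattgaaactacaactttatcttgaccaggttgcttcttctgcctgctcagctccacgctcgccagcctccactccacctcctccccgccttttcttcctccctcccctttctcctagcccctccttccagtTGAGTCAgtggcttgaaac
Pde8a: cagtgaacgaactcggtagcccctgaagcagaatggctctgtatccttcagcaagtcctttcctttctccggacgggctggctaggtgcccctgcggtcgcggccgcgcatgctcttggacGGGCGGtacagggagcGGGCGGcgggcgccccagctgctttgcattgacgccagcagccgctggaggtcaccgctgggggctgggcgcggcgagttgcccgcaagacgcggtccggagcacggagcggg
Slit2: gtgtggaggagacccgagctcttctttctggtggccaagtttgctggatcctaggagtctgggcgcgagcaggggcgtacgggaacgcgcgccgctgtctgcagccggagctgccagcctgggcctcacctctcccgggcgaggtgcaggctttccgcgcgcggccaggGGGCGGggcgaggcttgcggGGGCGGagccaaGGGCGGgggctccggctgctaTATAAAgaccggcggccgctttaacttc
Ak1: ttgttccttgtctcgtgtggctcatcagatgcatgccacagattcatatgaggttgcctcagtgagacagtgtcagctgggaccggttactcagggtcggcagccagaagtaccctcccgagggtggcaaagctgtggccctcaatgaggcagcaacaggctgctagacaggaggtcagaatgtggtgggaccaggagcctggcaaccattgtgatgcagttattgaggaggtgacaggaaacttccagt

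The motifs searched on both strands were the E-box CACGTG, the M-box core CATGTG, the AP-1 element TGANTCA, the TATA box TATAAA and the GC box GGGCGG. Of these, CACGTG occurred in 6.02% of all 32851 windows of this length, CATGTG in 12.3%, TGANTCA in 6.75%, TATAAA in 12.4% and GGGCGG in 32.7%. The capitals in Gja1 are an AP-1 element that begins at -19 from the start. Those in Pde8a are GC boxes that begin at -129 and -113. In Slit2 they are GC boxes that begin at -81, -61 and -49 and a TATA box that begins at -28. No motif of the 5 was found in 6 of the 12 windows. These were all Ak1 windows, the printed run included, and those of Hapln1 and Isyna1. The ratio of observed to expected CpG was 0.921 for Pde8a, 0.848 for Slit2, 0.468 for Gja1 and 0.219 for Ak1, beside a median of 0.373 over all windows. The windows of Pde8a and Slit2 were richer in CpG than that of Gja1, which has the same order of numbers. The windows end at the RefSeq start, which differs from the GENCODE M21 start by 0 bases for the first Ak1 window, 17 bases for Slit2, 30 bases for Gja1 and 331 bases for Pde8a. For the other Ak1 windows, which are not printed, the difference was 3679, 6632 and 7742 bases.

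Library totals ran from 15317003 to 18466972 counts. Irf1, Cd274, Socs1 and Nampt, checks of treatment, were each called higher with IFNγ plus FK866 and with IFNγ, both against media. After the mean of each condition was removed, r over all genes kept was 0.593 to 0.759 for the 9 pairs of libraries that share a number and -0.509 to -0.140 for the 18 pairs that share neither number nor condition. Removing the mean of a condition makes the second range negative on average once libraries that share a number correlate, so it adds no separate evidence. By the positive values of the first range, the numbers mark sets of 3 libraries, and below each gene is given by number. The summed level of 10 melanocyte lineage markers lay between 15632 and 19055 CPM in the 9 libraries, most of it Tyrp1, Dct and Pmel. Tyr, the tyrosinase gene, averaged 113 CPM in number 4, 393 CPM in number 5 and 202 CPM in number 3. Kit, a melanocyte receptor, averaged 15.4 CPM in number 4, 9.53 CPM in number 5 and 3.90 CPM in number 3, and Ednrb, an endothelin receptor of this list, was near 0 throughout.

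Markers of other cell types were low. Of 12 leukocyte markers, 9 had 0 counts in all libraries, Ptprc included, and their sum lay between 9.80 and 12.05 CPM in number 4, between 6.55 and 8.99 CPM in number 3 and between 3.21 and 4.64 CPM in number 5, nearly all of it Cd68, a lysosomal protein. Of 12 fibroblast, endothelial and keratinocyte markers, 5 had 0 counts (Cdh5, Kdr, Krt5, Krt14 and Epcam), and their sum lay between 9.33 and 15.2 CPM in number 4, between 4.57 and 7.18 CPM in number 5 and between 3.41 and 7.82 CPM in number 3. Pdgfra, a growth factor receptor of mesenchymal cells, carried this difference with 6.72 CPM in number 4, 1.89 CPM in number 5 and 1.11 CPM in number 3. Its order is that of 6 of the 10 genes, and its part in their levels was not tested. In bulk RNA, fewer cells that express a gene and less RNA per cell cannot be told apart.

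Levels below are library-size scaled counts (CPM, with TMM scaling factors), 1 value per library, and each mean ± SD is over the 3 treatments of a number (n = 3), so that the SD includes any treatment effect. Number 3 was an extreme for all 10 genes: Carmil2, Ak1 and Mcoln3 were highest there, and Lgals3, Slc44a3, Gja1, Isyna1, Pde8a, Hapln1 and Slit2 were lowest there. It was an extreme for most other genes of this kind too. Among the 435 kept genes at least 4-fold apart without overlap, it was the middle number in 9.89% (order 4, 3, 5) and 5.75% (order 5, 3, 4). Carmil2 and Ak1 were low in both number 4 and number 5, whereas Mcoln3 was low in number 4 and intermediate in number 5. Within the 7 genes that were lowest in number 3, all but Lgals3 were higher in number 4 than in number 5, with no overlap of libraries. The libraries of the highest number did not overlap those of the lowest for any of the 10 genes, as the rule that listed them asks. Of all genes kept, 2.85% had no such overlap and a difference of at least 4-fold.

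**Figure D1:**
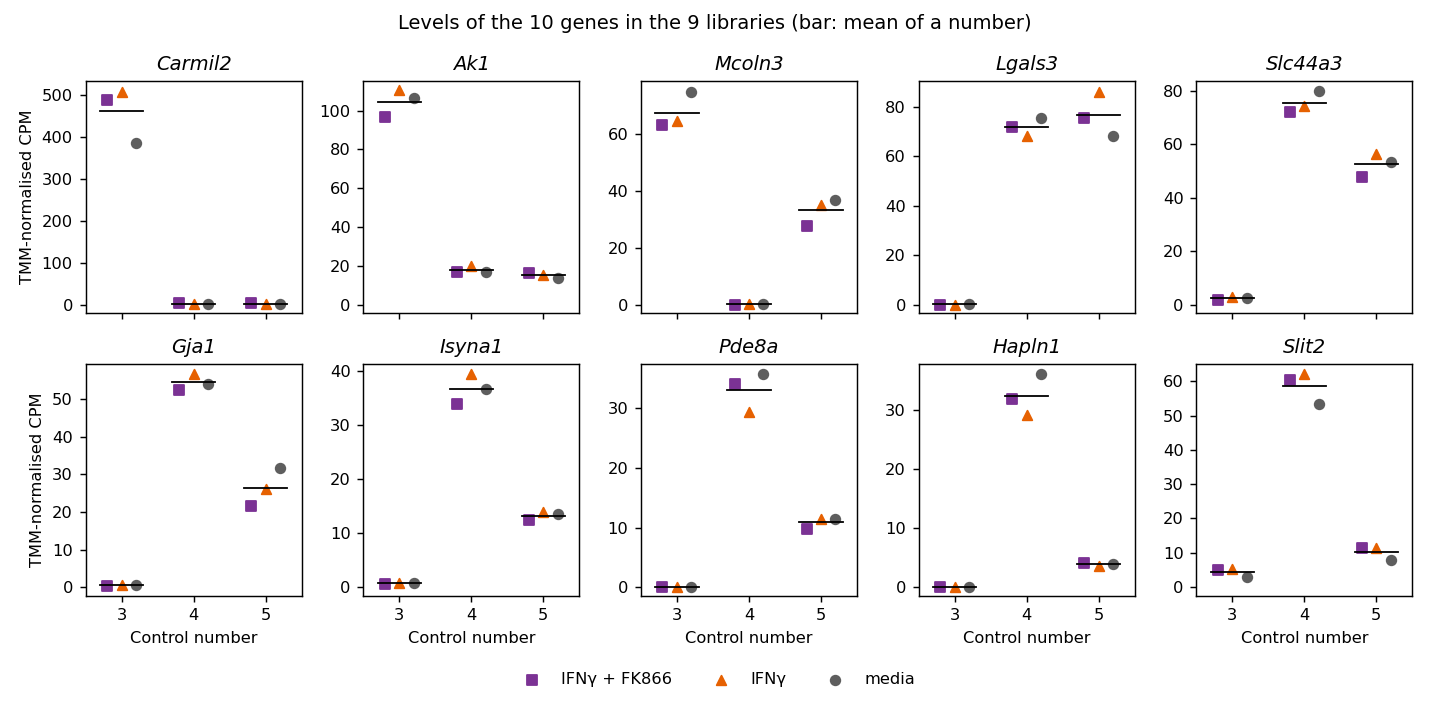
CPM of each gene (vertical axis, a scale per panel) by Control number (horizontal axis) in the 9 libraries, with squares for IFNγ plus FK866, triangles for IFNγ, circles for media and a bar for the mean of a number. Points of the same number lie together whatever the treatment, as for Carmil2, where the libraries of number 3 lie between 386 and 508 CPM and all others at or below 3.74 CPM.

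Among the cell surface and matrix genes, Gja1 (ENSMUSG00000050953, chr10:56377330-56402513, plus strand) was abundant in number 4 and nearly absent in number 3. In number 4 it had 52.4 CPM with IFNγ plus FK866, 56.6 CPM with IFNγ and 54.1 CPM in media. In number 5 the 3 libraries had 21.7, 26.0 and 31.5 CPM in the same order of treatments, or 48.6% of number 4. In number 3 they had 0.279, 0.593 and 0.628 CPM, from 24 counts in all. The 3 sets of libraries did not overlap, and the ratio of number 4 to number 3 was 109, with a 95% counting interval of 74.3 to 173 around the ratio of pooled counts of 111.

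Hapln1 (ENSMUSG00000021613, chr13:89539796-89611652, plus strand) had the same order with a steeper step between numbers 4 and 5. Number 4 had 31.9 CPM with IFNγ plus FK866, 29.2 CPM with IFNγ and 36.2 CPM in media. Number 5 had 4.13, 3.61 and 4.00 CPM, or 12.1% of number 4. Only 3 counts fell on Hapln1 in number 3, giving 0.112 CPM with IFNγ plus FK866, 0 with IFNγ and 0.0628 CPM in media. The ratio of pooled counts between numbers 4 and 3 was 536, with a counting interval of 183 to 2601.

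Slit2 (ENSMUSG00000031558, chr5:47983138-48307733, plus strand) kept a measurable level in every library. Number 4 had 60.2 CPM with IFNγ plus FK866, 62.2 CPM with IFNγ and 53.4 CPM in media, and number 5 had 11.3, 11.3 and 7.999 CPM. Number 3 had 4.97 CPM with IFNγ plus FK866, 5.20 CPM with IFNγ and 2.95 CPM in media. All 3 sets lay apart, and within each number the media library was the lowest. The mean was 58.6 ± 4.61 CPM in number 4 and 4.37 ± 1.24 CPM in number 3, a ratio of 13.4.

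Lgals3 (ENSMUSG00000050335, chr14:47367751-47386160, plus strand) was nearly absent from number 3 and abundant at overlapping levels in both others. In number 5 it had 75.6 CPM with IFNγ plus FK866, 86.1 CPM with IFNγ and 68.2 CPM in media, and in number 4 it had 71.8, 68.1 and 75.5 CPM. The libraries of numbers 5 and 4 overlapped, at means of 76.6 ± 8.99 and 71.8 ± 3.72 CPM. In number 3 the levels were 0 with IFNγ plus FK866, 0.0658 CPM with IFNγ and 0.188 CPM in media, from 4 counts. The ratio of number 5 to number 3 was 904, and the pooled ratio of 944 had a counting interval of 368 to 3465.

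Of the membrane transport genes, Mcoln3 (ENSMUSG00000036853, chr3:146117450-146141806, plus strand) was nearly absent from number 4 and from no other number. Number 3 had 63.2 CPM with IFNγ plus FK866, 64.6 CPM with IFNγ and 75.0 CPM in media. Number 5 had 27.6, 35.0 and 37.0 CPM, and number 4 had 0, 0.305 and 0.274 CPM, from 10 counts. The ratio of number 3 to number 4 was 351 on means, and 358 on pooled counts with an interval of 195 to 748. No library of a number overlapped those of another.

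Slc44a3 (ENSMUSG00000039865, chr3:121459528-121532404, minus strand) lies on the same chromosome and ran the other way. Number 4 had 72.1 CPM with IFNγ plus FK866, 74.2 CPM with IFNγ and 79.6 CPM in media, and number 5 had 47.8, 56.1 and 53.4 CPM. In number 3 the gene kept 1.90, 2.6995 and 2.51 CPM, or 3.15% of number 4. The ratio of number 4 to number 3 was 31.8, and number 5 stood at 69.6% of number 4 with no overlap.

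Among the enzymes, Isyna1 and Pde8a shared the order of Gja1. Isyna1 (ENSMUSG00000019139, chr8:70594373-70597290, plus strand) had 33.96 CPM with IFNγ plus FK866, 39.5 CPM with IFNγ and 36.8 CPM in media in number 4. Number 5 had 12.4, 13.9 and 13.6 CPM, and number 3 had 0.503, 0.790 and 0.816 CPM, 34 counts in all. The sets lay apart, with a ratio of number 4 to number 3 of 52.3.

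Pde8a (ENSMUSG00000025584, chr7:81213596-81334533, plus strand) came closest to full absence. In number 4 it had 34.1 CPM with IFNγ plus FK866, 29.4 CPM with IFNγ and 35.7 CPM in media, and in number 5 it had 9.82, 11.5 and 11.5 CPM. Across the 3 libraries of number 3 it had 1 count, in the library with IFNγ plus FK866 (0.0558 CPM). The ratio of pooled counts between numbers 4 and 3 was 1625, with a counting interval from 291 to 64229 that shows how little a lone count fixes it. A count of 0 allows up to 3 counts, or 0.193 CPM in the IFNγ library and 0.194 CPM in the media library of number 3.

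Ak1 (ENSMUSG00000026817, chr2:32621758-32635058, plus strand) had the mildest contrast and stayed well expressed everywhere. Number 3 had 96.7 CPM with IFNγ plus FK866, 110 CPM with IFNγ and 106 CPM in media. The other libraries had 17.1, 19.9 and 16.8 CPM in number 4 and 16.4, 15.04 and 13.8 CPM in number 5. Number 3 lay far above the rest, with a mean of 105 ± 7.08 CPM against 15.1 ± 1.29 CPM in number 5, a ratio of 6.94. Numbers 4 and 5 differed by a ratio of 1.19 and did not overlap.

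Carmil2 (ENSMUSG00000050357, chr8:105686274-105698187, plus strand) was the actin regulator, and its libraries of number 3 held more counts than those of any other of the 10 genes. Number 3 had 489 CPM with IFNγ plus FK866, 508 CPM with IFNγ and 386 CPM in media. Number 4 had 3.74, 2.13 and 2.52 CPM, and number 5 had 3.01, 1.24 and 2.09 CPM. Numbers 4 and 5 overlapped, and the ratio of number 3 to number 5 was 218 (pooled 221, interval 182 to 271). The 3′ end of Carmil2 overlaps Acd, a shelterin gene on the opposite strand, whose mean was 16.4 CPM in number 3, 22.7 CPM in number 4 and 36.7 CPM in number 5. The strand setting of the counting is not given in the sources, so reads from the shared stretch cannot be assigned, and the order of Acd is the reverse of that of Carmil2.

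**Figure D2:**
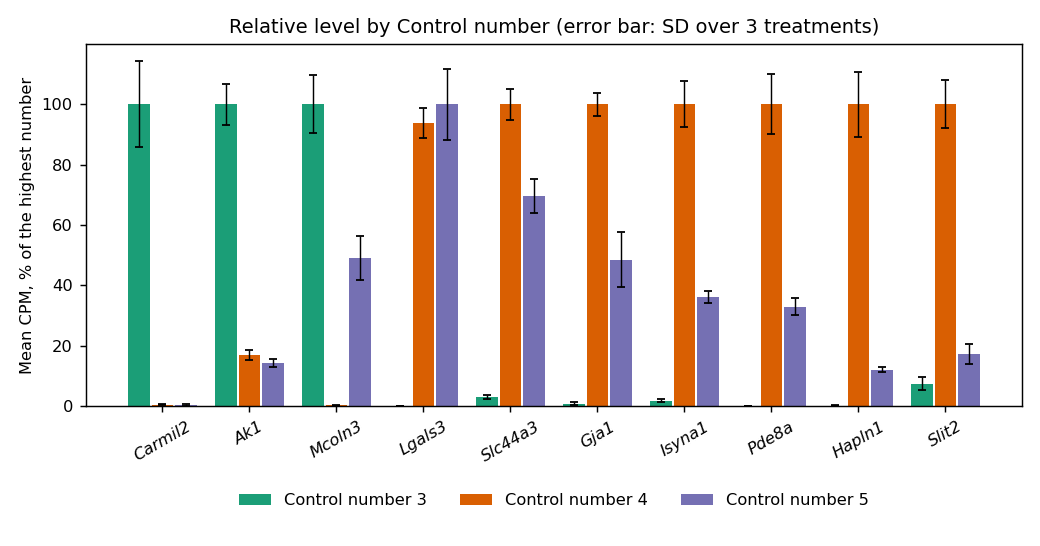
Mean CPM of each gene by Control number as a percentage of its highest number (vertical axis, from 0), with bars for numbers 3, 4 and 5 and error bars for the SD over 3 treatments. The share kept in number 5 runs from 100% for Lgals3 through 69.6% for Slc44a3 and 48.6% for Gja1 to 12.1% for Hapln1 among the genes that were lowest in number 3.

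The level in number 5 set apart genes that share an order. Relative to number 4, it was 69.6% for Slc44a3, 48.6% for Gja1, 36.1% for Isyna1, 33.0% for Pde8a, 17.4% for Slit2 and 12.1% for Hapln1. For Mcoln3 it was 49.1% of number 3. Corrected for the length of the union of exons, the levels of the genes at their highest number, as TPM, ran from 231 ± 26.3 for Carmil2 through 112 ± 6.12 for Lgals3, 111 ± 7.40 for Ak1, 53.8 ± 6.79 for Mcoln3, 43.5 ± 2.44 for Isyna1 and 43.0 ± 1.31 for Slc44a3. Pde8a had 23.6 ± 2.48 TPM, Hapln1 15.9 ± 1.598 TPM, Gja1 15.3 ± 0.434 TPM and Slit2 6.66 ± 0.639 TPM (SD, n = 3). The union takes in the exons of all annotated transcripts. It was longest for Slit2 (25433 bases) and Gja1 (10257 bases), which lowers their TPM and their place in the order. Lgals3 and Ak1, Isyna1 and Slc44a3, and Hapln1 and Gja1 are neighbours in this order whose means differed by less than the larger of their SDs. On this scale the highest number of Lgals3 was number 4, with number 5 at 101 ± 8.98 TPM.

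The spread between treatments was small beside the spread between numbers, which the rule that listed the genes asks for, so nothing is read from it. At the highest number the coefficient of variation over the 3 treatments lay between 3.86% for Gja1 and 14.2% for Carmil2. The median over all genes with at least 30 CPM was 5.62%, 6.33% and 6.73% in numbers 3, 4 and 5. Only Gja1 and Slc44a3 (5.18%) lay below the median of their highest number. At the lowest number the coefficient was larger for each gene, from 8.56% for Ak1 to 173% for Pde8a, the latter from 1 count.

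Switches of this size were rare but not limited to the 10 genes. Of the 15237 genes kept, 435 (2.85%) differed at least 4-fold between their highest and lowest number without overlap, 425 of them besides the 10. On the scale of log2(CPM + 0.5), the difference between highest and lowest number had a median of 5.83 over the 10 genes and 0.35 over all genes kept. Just inside the range was Ak1 with a ratio of 6.94. Just outside it, among genes whose highest number mean was at least the 32.4 CPM of Hapln1, were Lamb1, a laminin chain, with 37.8 against 5.56 CPM (ratio 6.81) and Met, the HGF receptor, with 741 against 134 CPM (ratio 5.51). Of 230 other genes with a ratio at least that of Ak1, 3 also reached the smallest highest-number mean of the 10 genes in CPM, not corrected for length, the 32.4 CPM of Hapln1. They were Osmr, a cytokine receptor subunit, with 50.2 CPM in number 3, 24.9 CPM in number 5 and 0.0589 CPM in number 4, Plxna4, a semaphorin co-receptor, with 32.6 CPM in number 4, 28.4 CPM in number 5 and 1.41 CPM in number 3, and Adam12, a metalloprotease, with 35.2 CPM in number 5, 24.9 CPM in number 4 and 1.38 CPM in number 3.

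The orders of the numbers were spread over the 435 genes as follows. The order 4, 5, 3 from high to low was held by 121 genes (27.8%), 6 of the 10 genes among them, and the order 5, 4, 3 of Lgals3 by 115 (26.4%). The order 3, 4, 5 of Carmil2 and Ak1 was held by 86 genes (19.8%) and the order 3, 5, 4 of Mcoln3 by 45 (10.3%). The remaining 2 orders, 4, 3, 5 and 5, 3, 4, were held by 43 and 25 genes and by none of the 10. The same 3 sets of libraries give all these orders, so the counts describe these libraries.

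**Figure D3:**
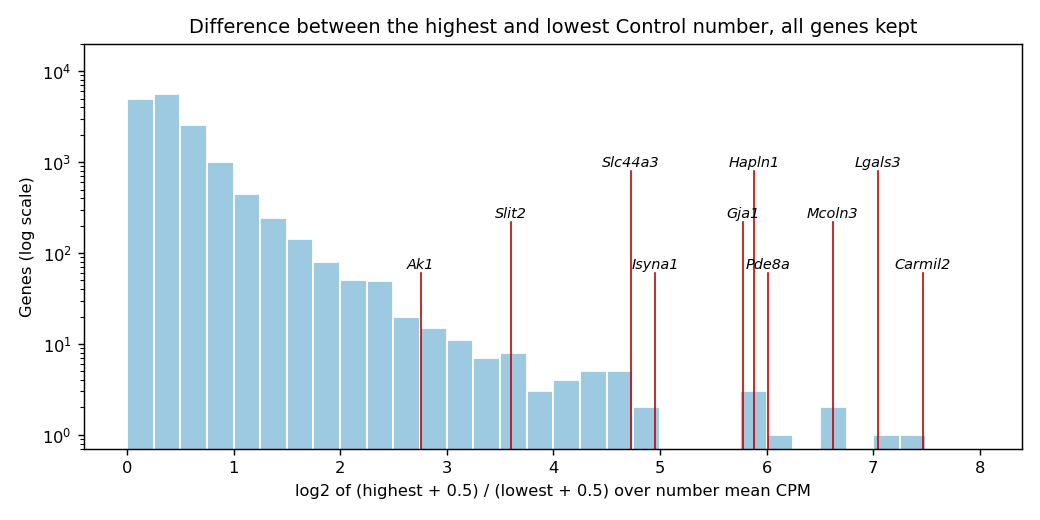
Number of genes kept (vertical axis, log scale) by the log2 difference between the highest and lowest Control number on log2(CPM + 0.5) (horizontal axis), with red lines at the 10 genes. The bulk of genes lies below 1, Ak1 lies at 2.75, and Carmil2 lies at the far end at 7.46.

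The treatment comparisons ask how IFNγ, and FK866 added to it, change RNA levels. The rule that listed the genes already asks for a pattern that holds in every treatment, so a small treatment effect is partly what they were chosen for, and nothing is read from the counts of calls that follow. In the edgeR quasi-likelihood fit of group means over all 9 libraries, 0 of 10 genes were called for IFNγ against media (3.3% of all genes tested were), 0 of 10 for IFNγ plus FK866 against IFNγ (0% of all genes), and 0 of 10 for IFNγ plus FK866 against media (3.36%). At an unadjusted p below 0.05 the count was also 0 of 10 in each comparison, as were the adjusted counts of DESeq2 and limma-voom. DESeq2 gave no adjusted p for Carmil2 and Ak1, so it could not call these genes. For IFNγ plus FK866 against IFNγ, edgeR, DESeq2 and limma-voom each called 0 of 15237 genes, and 88 genes had an unadjusted edgeR p below 0.05. The difference between numbers is part of the error in that fit: standard errors of the 10 log2 fold changes ran from 1.03 to 2.41 for IFNγ against media. For all genes tested the median standard error was 0.21.

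With the Control number as a block, the standard errors of the 10 genes ran from 0.08 to 0.15 for the same comparison, and 1 of 10 genes was called for IFNγ against media (14.3% of all genes), 0 of 10 for IFNγ plus FK866 against IFNγ (0.0197%), and 3 of 10 for IFNγ plus FK866 against media (16.1%). In each comparison, the 95% intervals of all 10 genes lay within a 2-fold change in either direction, from -0.59 to 0.68 on the log2 scale.

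Slit2 was the gene called in both comparisons with media. Its block estimate was a log2 fold change of 0.39 (standard error 0.11, edgeR adjusted p = 0.0193) for IFNγ and 0.35 (0.11, adjusted p = 0.0331) for IFNγ plus FK866. For IFNγ the log2 differences within numbers were 0.72 in number 3, 0.22 in number 4 and 0.48 in number 5, so Slit2 was higher with IFNγ in 3 of 3 numbers. DESeq2 with the block gave adjusted p-values of 0.0331 and 0.0546. Without number 3, 4 or 5 in turn, the block fit gave edgeR adjusted p-values of 0.0523, 0.0974 and 0.0895 for IFNγ and of 0.0619, 0.106 and 0.137 for IFNγ plus FK866, so each call was lost with any number left out. Without the block, the log2 fold change for IFNγ was 0.29 (standard error 1.21, edgeR adjusted p = 1.00).

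Carmil2 and Mcoln3 were called in opposite directions for IFNγ plus FK866 against media. Carmil2 rose by a block estimate of 0.40 (standard error 0.13, edgeR adjusted p = 0.0465), and was higher in 3 of 3 numbers. Mcoln3 fell by 0.34 (standard error 0.11, edgeR adjusted p = 0.0464) and was lower in 3 of 3 numbers. DESeq2 with the block called neither, at adjusted p-values of 0.423 for Carmil2 and 0.583 for Mcoln3. The edgeR call of Carmil2 was lost without number 3 (adjusted p = 0.222) or number 4 (0.172), and that of Mcoln3 without number 3 (0.0851) or number 5 (0.316). Gja1 had a block estimate of -0.29 (standard error 0.11), which missed the threshold at an edgeR adjusted p of 0.100. Against IFNγ alone, the block estimates for IFNγ plus FK866 were 0.15 for Carmil2, -0.19 for Mcoln3 and -0.04 for Slit2, none called. The comparisons with media share the media libraries.

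**Figure D4:**
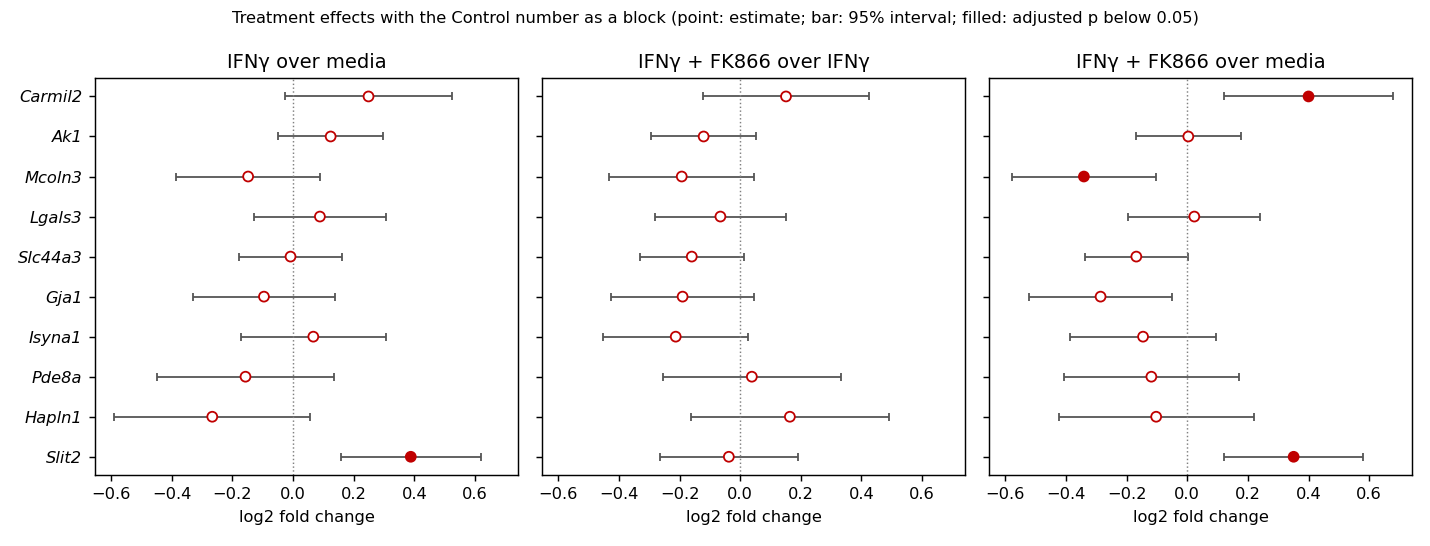
Log2 fold change (horizontal axis) of each gene with the Control number as a block, for IFNγ over media, IFNγ plus FK866 over IFNγ, and IFNγ plus FK866 over media, with points for estimates, bars for 95% intervals and filled points for an edgeR adjusted p below 0.05. Filled points are Slit2 in the left and right panels and Carmil2 and Mcoln3 in the right panel, and no interval reaches beyond 0.68 in size.

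Whether the step from media to IFNγ differed between numbers was tested for every gene with an interaction term, with both IFNγ groups counted as exposed. The term was called for 91 genes (0.597% of all genes tested) and for 0 of the 10. Their edgeR adjusted p-values ran from 0.288 to 0.955. Lgals3 had the smallest unadjusted p, 0.0141, the sole one of the 10 below 0.05, and its number 3 estimate rested on 4 counts. DESeq2 called 74 genes and 0 of the 10, with most adjusted p-values of the 10 not given. With 3 residual degrees of freedom among the libraries, the term rests on the spread between the exposed libraries of a number.

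Position was not used to choose the 10 genes, and the genes around them were compared between numbers in the same way. Of 182 kept genes whose lower coordinate lies within 500 kb of the ends of one of the 10 genes, 21 (11.5%) differed at least 2-fold between their highest and lowest number without overlap, beside 10.3% of all genes kept. Of the 21, 7 were highest in the same number as the switched gene nearby. The share to set beside this over all genes kept was not counted, so nothing is read from it. The 21 include Acd, which overlaps Carmil2, and Gm42537, a transcript inside Slit2 on the same strand that is also 1 of the 7. Counts of these may not be separate from those of the switched gene. At 2-fold or more within 100 kb the count was 7 of 43 (16.3%). At 1.5-fold within 500 kb it was 49 of 182 (26.9%), beside 22% of all genes kept. By number means, most of the 33 neighbours of Ak1 were highest in number 3 and lowest in number 5, as Ak1 was. Most of the 12 around Lgals3 were highest in number 3, where Lgals3 was lowest. Most of the 16 around Pde8a were lowest in number 3, as Pde8a was. Around Carmil2, most of the 42 neighbours were highest in number 5, where Carmil2 was lowest. Around Slc44a3, most of the 15 were lowest in number 4, where Slc44a3 was highest. The shares of these orders over all genes kept were not counted, so nothing is read from them. The median ratio was 1.42, 1.62 and 1.40 around Ak1, Lgals3 and Pde8a, and 1.31 and 1.25 around Carmil2 and Slc44a3, beside 1.31 over all genes kept. A regional cause was not tested. Mcoln2, the paralogue that starts 32.4 kb from Mcoln3, had 25.3 ± 2.77 CPM in number 4, 13.7 ± 0.721 CPM in number 3 and 5.11 ± 1.099 CPM in number 5, so it was highest where Mcoln3 was nearly absent. Vcan, the gene of the proteoglycan versican and the nearest kept gene beyond Hapln1, had 2.94 ± 0.566 CPM in number 4, 2.01 ± 0.395 CPM in number 5 and 2.11 ± 0.172 CPM in number 3.

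Other nearest kept genes with a known name differed between their highest and lowest number by ratios such as 1.105 for Ssbp4, 1.19 for Dlgap5 and 1.69 for Eng, with 2.24 for Acd and 2.65 for Edil3, an integrin ligand that starts 718 kb from the start of Hapln1, at the upper end. Ssbp4, on the opposite strand from Isyna1, had 119 ± 5.19 CPM in number 4 and 121 ± 2.83 CPM in number 3. Dlgap5, a mitotic spindle gene beside Lgals3, had 56.1 ± 2.72 CPM in number 5 and 66.7 ± 4.44 CPM in number 3. Ctcf, upstream of Carmil2, had 89.3 ± 1.57 CPM in number 3 and 116 ± 5.46 CPM in number 5, and Eng, the endoglin gene beyond Ak1, had 431 ± 78.8 CPM in number 3 and 255 ± 19.6 CPM in number 5. Inside Slit2, the transcript Gm42537, of a type annotated as awaiting experimental support, had 1.25 CPM in number 4 and 0.0429 CPM in number 3, from 86 counts in all libraries, and the Mir218-1 locus had 11 counts.

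**Figure D5:**
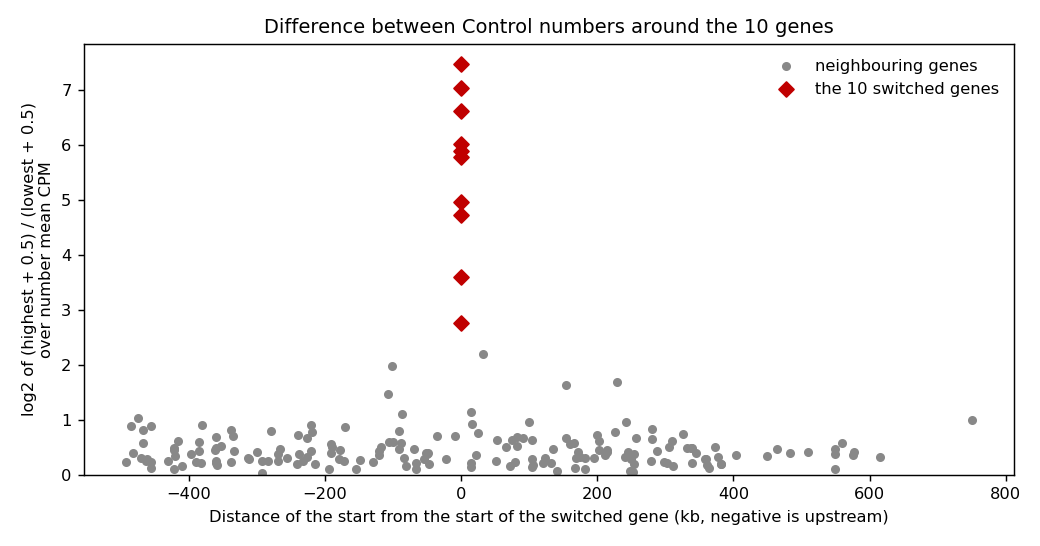
Log2 difference between the highest and lowest Control number on log2(CPM + 0.5) (vertical axis) by distance of the start from the start of the switched gene in kb (horizontal axis), with grey points for neighbouring genes and red diamonds for the 10 genes. The highest neighbour is Mcoln2 at 2.20, under the lowest of the 10 genes, Ak1 at 2.75.

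Some genes elsewhere in the genome had profiles most like those of the 10, by Pearson's r of log2(CPM + 0.5) over the 9 libraries among 69 candidates that differ at least 4-fold between numbers. The libraries of a number deviate together, so r mostly describes 3 sets and is given with no p. Dglucy, a gene of D-glutamate metabolism, followed both Carmil2 (r = 0.996) and Ak1 (0.992), with 15.5 CPM in number 3, 3.34 CPM in number 4 and 2.88 CPM in number 5. The next were Il33, an alarmin cytokine, for Carmil2 (0.970) and Exoc3l4 for Ak1 (0.971). Tmem144, a membrane protein gene, followed Slc44a3 (0.998), Lgals3 (0.995) and Gja1 (0.993), with 26.0 CPM in number 4, 20.6 CPM in number 5 and 0.378 CPM in number 3. Naalad2, a peptidase gene, followed Slc44a3 (0.995), Gja1 (0.992) and Pde8a (0.988), and Hapln4 followed Lgals3 (0.993).

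Hapln1 and Slit2 shared a closest profile. Capn6, a calpain family gene on the X chromosome, followed Hapln1 (r = 0.996) and Slit2 (0.974), with 31.1 CPM in number 4, 3.27 CPM in number 5 and 0.0791 CPM in number 3. Mbp, the myelin basic protein gene, was next for Hapln1 (0.983) and Armcx4 for Slit2 (0.961). Col4a4, a collagen IV chain, followed Mcoln3 (0.973). Nqo1, a quinone reductase (0.991), and Arhgap9, a GTPase-activating protein (0.981), were closest to Isyna1, and Svil, the supervillin gene (0.991), was closest to Pde8a. Among the 10 genes, Slc44a3 and Gja1 had an r of 0.997, Carmil2 and Lgals3 had an r of -0.996, and Mcoln3 and Slit2 had an r of -0.976.

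The 10 lists of 134 genes, drawn around the families and pathways of the 10, held 78 kept genes besides them. Of these, 5 (6.41%) differed at least 4-fold between numbers without overlap, beside 2.85% of all genes kept, and 13 (16.7%) at least 2-fold, beside 10.3%. The 5 were Pde3a, a cAMP and cGMP phosphodiesterase, with 8.45 CPM in number 4 and 0.343 CPM in number 3, Hapln4, a link protein of the brain matrix, with 9.29 CPM in number 5 and 0.394 CPM in number 3, Gjb1, which encodes connexin 32, with 2.85 CPM in number 5 and 0.480 CPM in number 3, Mcoln2, and Ak8, an adenylate kinase, with 0.784 CPM in number 3 and 0.143 CPM in number 4. In the actin capping list, Carmil1 had 19.9 ± 5.15 CPM in number 3 and 12.7 ± 3.28 CPM in number 5, and Carmil3 had 3.88 ± 0.215 CPM in number 3 and 2.23 ± 0.767 CPM in number 4.

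Other list genes had the following levels. The SLIT receptor gene Robo1 had 126 ± 26.5 CPM in number 3, 105 ± 24.7 CPM in number 4 and 110 ± 13.6 CPM in number 5. These means differed by less than the largest SD, but that SD is over treatments and includes the effect of IFNγ. With the Control number as a block, Robo1 rose with IFNγ against media by a log2 fold change of 0.49 (edgeR adjusted p = 1.67e-05). The SD therefore does not show whether the numbers differ. Robo2, another receptor gene of this list, had the order of Slit2 at a low level. It had 1.14 ± 0.351 CPM in number 4, 0.656 ± 0.213 CPM in number 5 and 0.410 ± 0.300 CPM in number 3. Lgals9, which encodes galectin-9, had 62.0 ± 9.99 CPM in number 3 and 23.9 ± 2.02 CPM in number 5, and Lgals1, which encodes galectin-1, had 779 ± 84.1 CPM in number 5 and 501 ± 53.4 CPM in number 4. Slc5a3, the sodium-coupled inositol transporter, had 72.0 ± 6.05 CPM in number 3, where Isyna1 was lowest, and 38.7 ± 3.21 CPM in number 4. The creatine kinase gene Ckb had 334 ± 21.3 CPM in number 3 and 212 ± 9.72 CPM in number 5. Pcyt1b, of phosphatidylcholine synthesis, had 6.60 ± 3.03 CPM in number 3 and 2.58 ± 0.849 CPM in number 4.

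In the treatment comparisons, 4 of the 78 list genes were called for IFNγ against media (3.3% of all genes tested were). The same 4 genes were called for IFNγ plus FK866 against media (3.36% of all genes). Cmpk2, a mitochondrial nucleotide kinase, rose by a log2 fold change of 2.64 (edgeR adjusted p = 5.73e-04). Chka, a choline kinase, rose by 1.157 (adjusted p = 0.0190 by edgeR) and Pde4b, a cAMP phosphodiesterase, rose by 1.00 (adjusted p = 0.0110 by edgeR). Gjb2, which encodes connexin 26, fell by 1.46 (edgeR adjusted p = 0.0205). None of the 78 was called for IFNγ plus FK866 against IFNγ. With the Control number as a block, 13 of the 78 list genes rose and 12 fell for IFNγ against media (14.3% of all genes were called). For IFNγ plus FK866 against media, 13 rose and 10 fell (16.1% of all genes). For IFNγ plus FK866 against IFNγ, 0 were called (0.0197%).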

How the data were processed

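The table analysed holds raw read counts per Ensembl gene in 9 columns, 1 per library, as deposited by the authors. The submitters' processing notes list DESeq2 1.30.1, featureCounts 1.6.3, cutadapt 1.16 and STAR 2.7.6a, and the builds mm10 and GRCm38, without a role or order. The sources used here do not give the annotation release or strand setting. The series text names a 10x platform, but the table holds no values per cell and was treated as bulk. Symbols were found for 55141 of 55487 gene IDs, and coordinates are from GENCODE M21 (GRCm38).

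Counts were fitted with edgeR 4.0.16 in R 4.3.3 (filterByExpr, TMM scaling, group means over all 9 libraries, quasi-likelihood F test), with Benjamini-Hochberg adjustment over the 15237 genes kept, which hold 99.9% of counts, and a threshold of 0.05. Standard errors came from the F statistic. The fit of group means was tested on simulated data that held no difference between numbers. That test therefore does not cover data with such differences, as here. Alternatives were the Control number as a block, DESeq2 1.42.0, limma-voom (limma 3.58.1), other scalings and filters, and leaving out libraries. The number pairs libraries across groups: it comes from the titles, and the correlation of deviations from group means was 0.593 to 0.759 in all 9 pairs that share it. Libraries of a group differed beyond sampling noise, with chi-square values of 22.7 or more per degree of freedom.

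Named genes are the 10 genes, the 2 most alike genes of each (mean CPM of at least 5), the nearest kept genes, the 3 genes of each list with the largest ratio at a mean CPM of at least 1, and other list members with their values. Osmr, Adam12, Plxna4, Lamb1, Met and Gm42537 were chosen after their values were seen. The members and lists were chosen with earlier results of these data known. Intervals and floors on counts cover counting error alone. TPM used the union of exons. Some genes that this rule names are not reported here.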

Additional observations from a re-analysis of the deposited data

How the results depend on the processing

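With the Control number as a block, which the pairing of the libraries calls for, counts of called genes grew. For IFNγ against media, 427 genes rose and 76 fell without the block, and 1237 rose and 936 fell with it. DESeq2 gave 180 that fell, and with the block 1079 that rose and 759 that fell. The block without number 3, 4 or 5 gave 1100, 867 and 1152 that rose and 783, 535 and 678 that fell. Of the 10 genes, 1 was called with the block and 1 by DESeq2 with the block. For IFNγ plus FK866 against IFNγ, 0 genes were called without the block; 2 rose and 1 fell with it, 1 rose by DESeq2 with it, and the block without number 3, 4 or 5 gave 5, 1 and 2 that rose and 3, 0 and 1 that fell. For IFNγ plus FK866 against media, 421 rose and 91 fell without the block, 1299 rose and 1160 fell with it, and the block without number 3, 4 or 5 gave 1501, 855 and 1188 that rose and 1101, 543 and 701 that fell. DESeq2 gave 198 that fell, or 1119 that rose and 906 that fell with the block, and the fit of these groups alone gave 59 that fell. Of the 10 genes, 3 were called with the block, 1 in the block without number 4 and 1 without number 5. Over all fits that leave out a library or a number, the counts ran from 287 to 1152, 26 to 783, 0 to 5, 0 to 3, 284 to 1501 and 34 to 1101 in the order of comparisons and directions above, and from 0 to 1 of the 10 genes; without the block the falls reached at most 68 for IFNγ and 75 for IFNγ plus FK866 against media. The interaction term was called for 91 genes, 54 with library totals alone, 267 without the filter and 63 to 241 with a library left out (241 without the IFNγ library of number 5), and for 0 of the 10 genes in each.

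Between numbers, 435 genes differed at least 4-fold, 753 within IFNγ plus FK866, 772 within IFNγ, 868 within media (1 library a number in these 3, so overlap plays no part), 1576 at 2-fold, 1427 without the filter and 446 to 506 with a library left out. Neighbour counts were 21 of 182, 7 of 43 within 100 kb and 49 of 182 at 1.5-fold. Estimates of the block fits called for Slit2, Carmil2 and Mcoln3 kept their sign in the block fits without each number and in DESeq2 with the block. Without the block, leaving out a library breaks a pair, and the estimates of these 3 genes against media, not called in those fits, changed sign in some of them, as for Carmil2 without the IFNγ plus FK866 library of number 3. Of the log2 ratios of the 10 genes between numbers, 130 values under alternatives moved by less than the SD and 10 by more, each from a treatment taken alone. Levels near 0 rest on 1 to 34 counts, which limits the size of the ratios, not their side.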
